A study of Mus musculus with 6 samples.

Results

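The 10 genes described here encode proteins of transforming growth factor beta (TGF-beta) signalling: the ligands *Tgfb1*, *Tgfb2* and *Tgfb3*, the latency gene *Ltbp1*, the integrin genes *Itgav*, *Itgb6* and *Itgb8*, the receptor genes *Tgfbr1* and *Tgfbr2*, and the feedback gene *Smad7*. They were taken by symbol from a table of 26100 gene rows, and all 10 were present and passed the filter on low counts. The RNA came from whole lungs of 6 mice, all of which had received bleomycin through the airway, a DNA-damaging drug that injures the alveoli and is followed by scarring. Lungs were taken at day 14 from 3 wild-type (WT) mice and 3 mice labelled *Clec7a* knockout (KO), which lack the beta-glucan receptor dectin-1 of myeloid cells. None of the sources used here gives the allele or the strain, sex or age of the mice, and lungs without bleomycin were not analysed here. The comparison asks how the genotypes differ within injured lung, and fewer cells of a type cannot be told apart from less RNA per cell.

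TGF-beta is made as a precursor that is cut by a furin-type protease and stays bound to its own propeptide as a latent complex, which LTBP proteins tether to the matrix. Integrins that pair the alpha v chain with beta 6 (on epithelium) or beta 8 bind that propeptide and activate the ligand. Active ligand joins the type II receptor to the type I receptor, and Smad2 and Smad3 carry the signal to the nucleus. The inhibitory gene *Smad7* is induced and damps the signal. In the lung the pathway is known for driving fibroblasts toward matrix production and contractility.

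The sequences below show where the integrin and ligand genes meet, in the coding strand of GENCODE M21 transcripts on GRCm38. Integrins read an arginine-glycine-aspartate motif in the propeptide, so each coding sequence was searched in frame for CGNGGNGAT, CGNGGNGAC, AGAGGNGAT, AGAGGNGAC, AGGGGNGAT and AGGGGNGAC, the codons for that motif. *Tgfb1* and *Tgfb3* each held 1 such run and *Tgfb2* held 0. Among the other 7 genes *Itgb6* held 2 and the rest 0, and 7.17% of 21591 mouse coding sequences held at least 1. Capitals mark the motif codons in *Tgfb1* (codons 244 to 246 of 390) and *Tgfb3* (261 to 263 of 412), and the codons of *Tgfb2* (261 to 263 of 414) that a protein alignment places opposite those of *Tgfb3*.
Tgfb1: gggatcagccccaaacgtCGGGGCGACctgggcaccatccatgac
Tgfb3: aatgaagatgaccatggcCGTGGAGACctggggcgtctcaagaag
Tgfb2: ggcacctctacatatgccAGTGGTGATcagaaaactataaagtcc
All 3 stretches have their capitals in exon 5 of 7. The *Tgfb1* stretch spans chr7:25696995-25697168 on the plus strand with an intron inside it, the *Tgfb3* stretch is chr12:86062147-86062191 and the *Tgfb2* stretch is chr1:186630735-186630779, both on the minus strand.

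A second set shows the arginine-X-X-arginine codons, in capitals, at which the propeptide is cut from the ligand. They are the last such codons before the final 100 codons, and each of the 3 coding sequences had 112 codons after them.
Tgfb1: cacagctcaCGGCACCGGAGAgccctggat
Tgfb2: tccagccggCGGAAGAAGCGCgctttggat
Tgfb3: ggcagtcagAGGAAGAAGAGGgccctggac
The gene for the protease that is known to cut such sites, *Furin*, is among the pathway genes described further on.

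The libraries held 31052936 to 34451956 counts each. The surfactant gene *Sftpc* (938 to 13701 CPM, counts scaled to depth with TMM factors) and the endothelial gene *Pecam1* (195 to 841 CPM) were read in every library as markers of lung. *Clec7a* was at 60.6 to 197 CPM in WT and 2.84 to 6.85 CPM in KO. Replicate 1 of both genotypes lay away from the others: Spearman correlations over the tested genes were 0.924 to 0.947 for the 9 pairs that include a first replicate and 0.959 to 0.992 for the 6 pairs that do not. The mitochondrial share of the counts was 7.34% in KO replicate 1 and 3.87% in WT replicate 1, against 2.69% to 3.48% in the other 4, and its part in the results was not tested. Each of the 10 genes is given with and without these libraries. At a Benjamini-Hochberg adjusted p under 0.05, the quasi-likelihood fit of edgeR had 0 of 16633 genes (0%) and limma-voom 0. Limma-voom with sample weights had 2221 of these (13.4%), and DESeq2 had 678 of the 18663 genes it gave an adjusted p (3.63%). At an unadjusted p under 0.05 edgeR had 1968 genes (11.8%, with 5.95% higher and 5.89% lower in KO) and limma-voom 12.6%. DESeq2 had 11.4% of the 22578 genes it gave a p.

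Of the 10 genes, 0 passed edgeR over all genes, 0 passed DESeq2 and 1, *Itgav*, passed limma-voom with sample weights. In simulated data edgeR recovered 0% of 2-fold changes and DESeq2 18%, so the lack of a call cannot show that a gene is unchanged. At an unadjusted p under 0.05 edgeR had 1 of 10, again *Itgav*, beside the 11.8% of all genes. The KO and WT values of *Itgav* did not overlap, while those of the other 9 genes did. The groups did not overlap for 21.1% of all genes tested, 11.3% lower and 9.81% higher in KO. The estimates were lower in KO for 6 genes and higher for 4, beside 51% lower and 49% higher over all genes, with a median log2 fold change (KO minus WT throughout) of -0.12 against -0.01. The shares called and separated among the 10 genes were thus close to or below those over all genes.

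**Figure D1:**
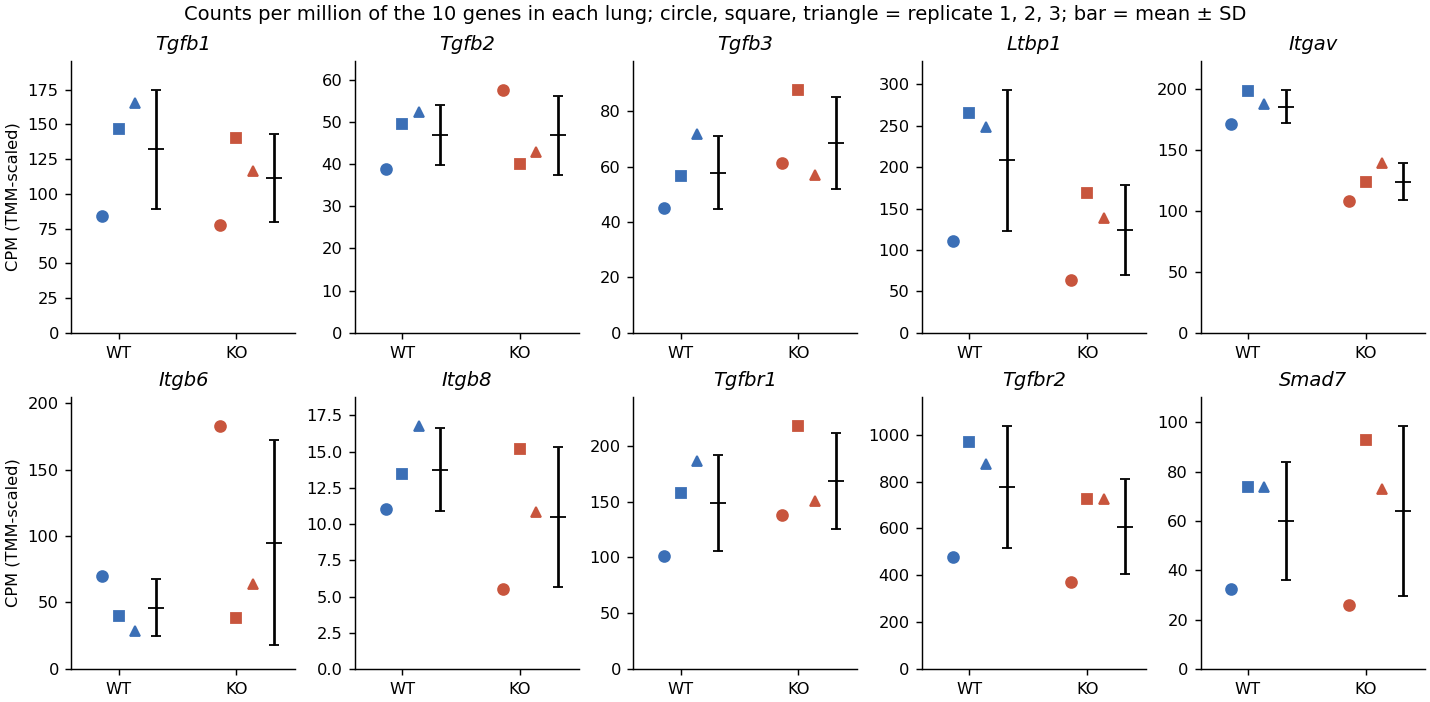
CPM (y axis, from 0) of each of the 10 genes in the 3 WT and 3 KO lungs, with circle, square and triangle for replicates 1, 2 and 3 and the mean ± SD beside them. The KO points lie below the WT points without overlap for *Itgav*, and the first replicates lie lowest in both genotypes for 7 genes.

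Per gene length, the type II receptor gene was the most abundant of the 10 and *Itgb8* the least. The mean deposited FPKM over the 6 lungs was 84.7 for *Tgfbr2*, 54.3 for *Tgfb1*, 27.9 for *Ltbp1*, 27.1 for *Tgfbr1* and 21.3 for *Itgav*. It was 18.1 for *Tgfb3*, 14.2 for *Itgb6*, 14.1 for *Smad7*, 8.97 for *Tgfb2* and 1.39 for *Itgb8*. *Tgfbr2* stood above *Tgfb1*, *Tgfb1* above *Ltbp1* and *Tgfb2* above *Itgb8* in 6 of 6 lungs. The neighbours between *Ltbp1* and *Tgfb2* changed places between lungs, with the named order seen in 2 to 4 of 6. From *Tgfb3* to *Tgfb2* the order of neighbours also varied within each genotype, so neighbouring levels there did not differ beyond their spread. *Tgfb3* itself was above *Tgfb2* in every lung. It had 12.0 to 20.5 FPKM against 6.88 to 9.97 in WT, and 16.6 to 25.8 against 8.09 to 11.2 in KO. *Ltbp1* was above *Tgfbr1* in 3 of 3 WT lungs and in 0 of 3 KO lungs, an order that was fixed within each genotype. Over all pairs of tested genes, the difference in log2 CPM separated the genotypes for 21.8%.

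*Tgfb1* encodes the ligand most often tied to fibrosis (ENSMUSG00000002603, GRCm38 chromosome 7, 25687002 to 25705077, plus strand). It was at 83.9, 146 and 165 CPM in WT replicates 1, 2 and 3 and at 77.3, 140.3 and 116 CPM in the KO replicates. The groups overlapped, and replicate 1 was lowest in both genotypes. The log2 fold change was -0.25 ± 0.33 (SE), with an edgeR adjusted p of 0.826 and a DESeq2 adjusted p of 0.889. Leaving out KO replicate 1 gave -0.04, and leaving out WT replicate 1 gave -0.49.

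*Tgfb2* (ENSMUSG00000039239, chromosome 1, 186622792 to 186705989, minus strand) had 38.9, 49.4 and 52.4 CPM in WT and 57.5, 40.01 and 42.9 CPM in KO. The groups overlapped, and the fitted difference was -0.003 ± 0.21 on the log2 scale, nearest to 0 of the 10 genes (edgeR adjusted p 0.997), and turned positive under other scalings and filters, up to 0.088. KO replicate 1 was the highest of the 6 libraries, and the value was -0.18 without it. *Tgfb3* (ENSMUSG00000021253, chromosome 12, 86056745 to 86079041, minus strand) had 45.2, 56.6 and 71.6 CPM in WT and 61.4, 87.6 and 57.01 CPM in KO. Its groups overlapped, with a log2 fold change of 0.25 ± 0.25 (edgeR adjusted p 0.754). Without KO replicate 2, the highest library, it was 0.04. Antisense transcripts annotated on the other strand share 2.14% of the exonic bases of *Tgfb2* and 4.82% and 7.6% of those of *Tgfb3*, and no source used here gives the strand setting of the counting.

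Within a lung the ligand genes can be compared per length, which does not depend on depth. *Tgfb1* gave 64.9%, 71.9% and 70.8% of the summed ligand FPKM in the WT lungs and 54.7%, 65.6% and 67.9% in the KO lungs. *Tgfb3* gave 17.8% to 22.3% in WT and 21.3% to 27.6% in KO, and *Tgfb2* gave 9.55% to 12.8% and 8.20% to 17.8%. *Tgfb1* was thus the main ligand transcript in every lung, and the shares of all 3 ligands overlapped between the genotypes. The summed ligand FPKM was 82.7 ± 26.2 in WT and 79.9 ± 17.9 in KO (SD, n = 3 each), closer together than either spread.

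**Figure D2:**
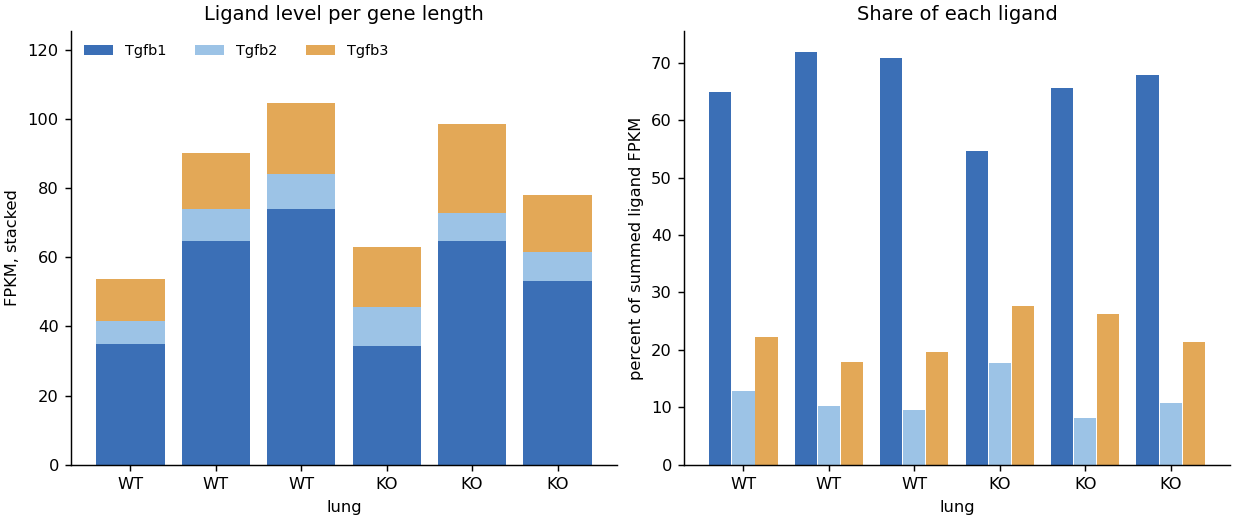
Deposited FPKM of the 3 ligand genes, stacked per lung (left, y axis in FPKM), and each ligand's percent of their sum (right, y axis in percent), for 3 WT and 3 KO lungs. *Tgfb1* makes up 54.7% to 71.9% of the sum in every lung.

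*Ltbp1* encodes the latent TGF-beta binding protein that anchors the complex to matrix (ENSMUSG00000001870, chromosome 17, 75005568 to 75392512, plus strand). It had 111, 266 and 248 CPM in WT and 63.4, 169 and 138 CPM in KO. Each KO library was lower than the WT library of the same rank, but the groups overlapped, since WT replicate 1 lay below both KO replicate 2 and KO replicate 3. The mean (SD, n = 3) was 208 ± 84.7 CPM in WT and 124 ± 54.3 in KO, a log2 fold change of -0.75 ± 0.47. The edgeR adjusted p was 0.578, that of DESeq2 was 0.553 and that of limma-voom with sample weights was 0.0563. The estimate became -0.44 when KO replicate 1 was left out and -1.06 when WT replicate 1 was. Without both first replicates it was -0.73 ± 0.13, with an unadjusted p of 0.00223 and an edgeR adjusted p of 0.0636 from 2 libraries a group, in a fit where 30% of all genes had an unadjusted p under 0.05.

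The ratio of *Ltbp1* FPKM to the summed ligand FPKM was 0.317, 0.519 and 0.405 in the WT lungs and 0.167, 0.281 and 0.293 in the KO lungs. The groups did not overlap in this ratio, which was chosen after its values were seen. The difference in log2 CPM between 2 genes of the same library separated the genotypes for 10 of the 45 pairs among the 10 genes, or 22.2%. Over all 138320028 pairs of tested genes the share was 21.8%, so separation of pairs was as frequent here as anywhere. *Ltbp1* and *Tgfbr1* took part in 4 separated pairs each, and *Itgb6* and *Tgfbr2* in 0.

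The mean log2 level of 6 scar fibroblast markers was lowest in replicate 1 of each genotype, as were *Ltbp1* and others of the 10 genes, 7 in all. The 6 markers (*Cthrc1*, *Postn*, *Col1a1*, *Col3a1*, *Tnc* and *Fap*) summed to 3411 to 15450 CPM in WT and 1622 to 9533 CPM in KO. Single markers could differ, and *Cthrc1* had 13.7, 37.8 and 6.88 CPM in KO, lowest in replicate 3. The part of scar fibroblasts in the *Ltbp1* values was not tested.

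*Itgav* encodes the alpha v chain that both TGF-beta-activating integrins share (ENSMUSG00000027087, chromosome 2, 83724397 to 83806916, plus strand). It had 171, 198 and 188 CPM in WT and 109, 124 and 139 CPM in KO, so the highest KO lung was below the lowest WT lung. The mean (SD, n = 3) was 186 ± 13.5 CPM in WT and 124 ± 15.3 in KO, 1.5-fold lower, with a log2 fold change of -0.58 ± 0.18. The unadjusted p of edgeR was 0.0146 and the adjusted p was 0.300. The DESeq2 adjusted p was 0.113, and limma-voom with sample weights, which gave the first replicates weights of 0.204 and 0.205 against 1.48 to 4.48 for the others, had an adjusted p of 0.0229. The estimate stayed between -0.67 and -0.50 when any 1 library was left out and was -0.54 without both first replicates. *Itgav* was the steadiest of the 10 within a genotype, its highest library exceeding its lowest 1.16-fold in WT and 1.28-fold in KO. An antisense transcript shares 5.9% of its exonic bases.

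*Itgb6*, the epithelial beta chain (ENSMUSG00000026971, chromosome 2, 60598292 to 60722643, minus strand), had the widest spread. Its values were 70.3, 39.8 and 28.4 CPM in WT and 183, 38.6 and 64.3 CPM in KO. One lung, KO replicate 1, was far above all others, and KO replicate 2 was below 2 of the WT lungs. The log2 fold change was 1.04 ± 0.63 (edgeR adjusted p 0.563). It was 0.16 without KO replicate 1 and was 0.60 ± 0.31 without both first replicates. Type 1 alveolar markers (*Ager*, *Hopx*, *Rtkn2*, *Cldn18*, *Aqp5* and *Clic5*) summed to 4139, 1495 and 982 CPM in WT and 6003, 1450 and 2927 CPM in KO, the same order of lungs as *Itgb6*. Type 2 alveolar markers summed to 1765 to 9553 CPM in WT and 3282 to 18500 CPM in KO, also highest in the first replicates. Transitional epithelial markers summed to 4598, 1299 and 879 CPM in WT and 2184, 812 and 1308 CPM in KO, again highest in replicate 1 of both genotypes. Airway markers had another order. Secretory airway markers summed to 11780, 937 and 305 CPM in WT and 2523, 1767 and 4507 CPM in KO. Ciliated markers summed to 779, 348 and 245 CPM in WT and 468, 335 and 530 CPM in KO. Both were highest in replicate 1 of WT but in replicate 3 of KO. The part of epithelial content in the *Itgb6* values was not tested.

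*Itgb8* (ENSMUSG00000025321, chromosome 12, 119158022 to 119238802, minus strand) was the scarcest gene, at 11.1, 13.5 and 16.8 CPM in WT and 5.53, 15.2 and 10.8 CPM in KO, from 175 to 574 counts a library. The groups overlapped, and the log2 fold change was -0.39 ± 0.39 (edgeR adjusted p 0.748), or -0.08 without KO replicate 1. In FPKM *Itgb6* exceeded *Itgb8* in every lung, 3.00- to 11.3-fold in WT and 4.49- to 58.0-fold in KO. Alpha v also pairs with the beta 1, beta 3 and beta 5 chains. Among these, *Itgb1* had 363 ± 119 FPKM in WT and 299 ± 65.0 in KO, and *Itgb5* had 78.4 ± 31.04 and 79.9 ± 33.2, both well above *Itgb6* (9.06 ± 3.82 and 19.3 ± 15.2) and with differences within their SD. *Itgb3* had 11.6 ± 2.26 FPKM in WT and 6.38 ± 0.40 in KO (SD, n = 3).

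**Figure D3:**
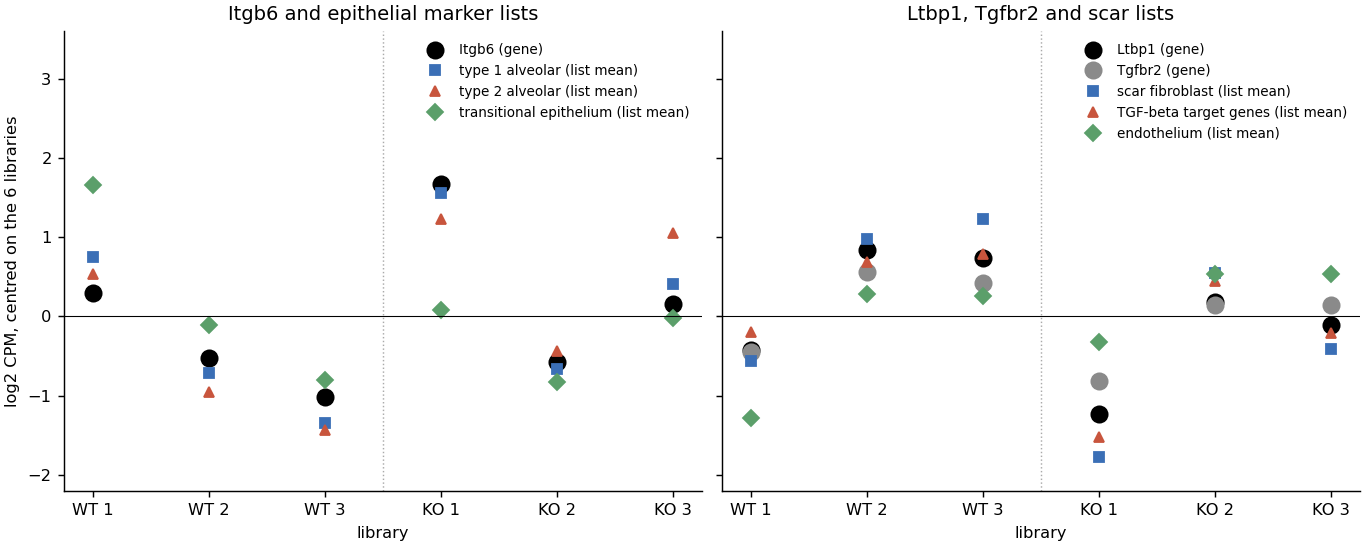
Log2 CPM centred on the mean of the 6 libraries (y axis) in each library (x axis), for *Itgb6* beside the mean of 3 epithelial marker lists (left) and for *Ltbp1* and *Tgfbr2* beside the scar fibroblast, target gene and endothelial lists (right). *Itgb6* lies at 1.67 in KO replicate 1, where the type 1 alveolar list is at 1.56, and *Ltbp1* lies at -1.23 there, where the scar fibroblast list is at -1.78.

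*Tgfbr1* encodes the type I receptor kinase (ENSMUSG00000007613, chromosome 4, 47353222 to 47414931, plus strand). It had 101.5, 158 and 187 CPM in WT and 138, 218 and 150.5 CPM in KO, with overlapping groups. The log2 fold change was 0.18 ± 0.30 (edgeR adjusted p 0.857), and it turned to -0.03 when WT replicate 1 was left out and to -0.04 when KO replicate 2 was. *Tgfbr2*, the ligand-binding type II receptor gene (ENSMUSG00000032440, chromosome 9, 116084293 to 116175360, minus strand), had 479.8, 971 and 877 CPM in WT and 373, 726 and 726 CPM in KO. Replicate 1 was lowest in both groups, which overlapped, and the log2 fold change was -0.35 ± 0.39 (edgeR adjusted p 0.779). Leaving out KO replicate 1 brought it to -0.10, and leaving out WT replicate 1 to -0.60. The ratio of *Tgfbr2* to *Tgfbr1* FPKM was 3.72 ± 0.61 in WT and 2.61 ± 0.78 in KO (SD, n = 3), and the highest KO lung, at 3.46, exceeded 2 of the WT lungs.

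*Smad7* (ENSMUSG00000025880), induced by the pathway and a brake on its receptors, had 32.2, 73.8 and 73.7 CPM in WT and 25.8, 92.9 and 73.02 CPM in KO. The first replicates were the lowest in both genotypes, 2.29-fold below the highest in WT and 3.6-fold in KO, and the other 4 lungs lay between 73.02 and 92.9 CPM. The log2 fold change was 0.09 ± 0.52 (edgeR adjusted p 0.965). It became 0.47 when KO replicate 1 was left out, but -0.28 when KO replicate 2, -0.21 when WT replicate 1 and -0.01 when KO replicate 3 was left out, so its direction turned with single libraries.

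**Figure D4:**
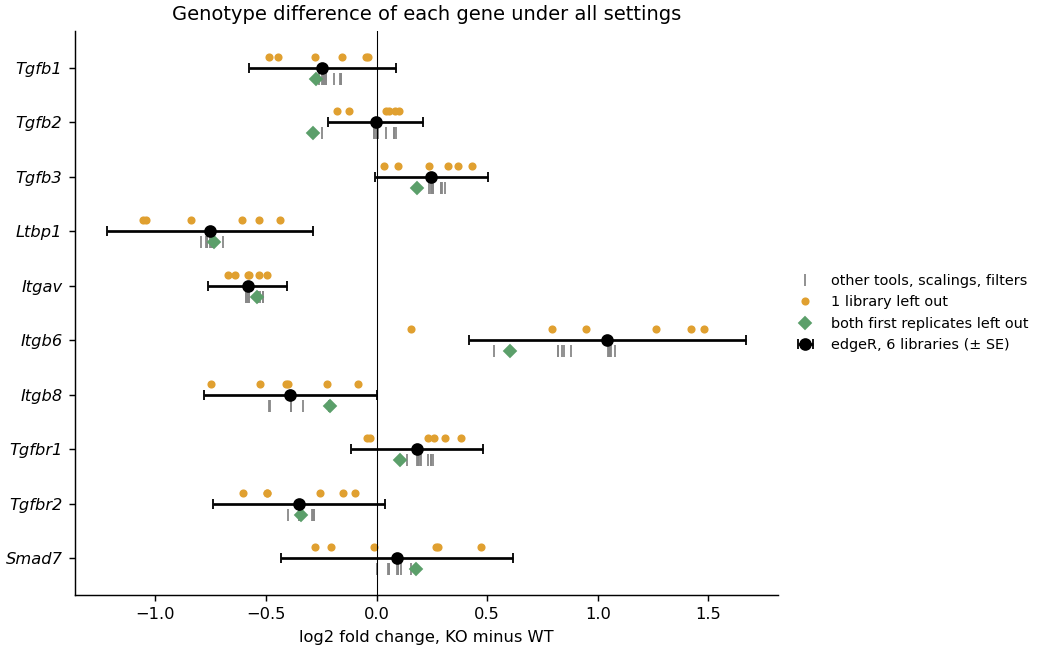
Log2 fold change (KO minus WT, x axis) of each gene from edgeR with its SE (black), with 1 library left out (orange), without both first replicates (green) and under the other tools, scalings and filters (grey ticks). *Itgav* stays between -0.67 and -0.50 with 1 library left out, and *Itgb6* ranges from 0.16 to 1.48.

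For every gene of the 10 except *Itgav*, the larger of the within-genotype SDs was about as large as the difference between the genotype means or larger. Replicate 1 was the lowest library in both genotypes for 7 genes (*Tgfb1*, *Ltbp1*, *Itgav*, *Itgb8*, *Tgfbr1*, *Tgfbr2* and *Smad7*), or 70%, beside 30.2% of all genes tested. It was the highest in both for 1, *Itgb6*, beside 27.4% of all genes. These shares were counted after the libraries were seen to stand apart. The first replicates also had the lowest sums of endothelial markers in their genotypes, 675 CPM in WT and 1261 CPM in KO against 2057 to 2122 and 2625 to 2642 in the others, and the highest sums of mesothelial markers, 1227 and 683 CPM against 249 to 337 and 172 to 265. Their red cell marker sums were likewise the highest, 4690 and 8013 CPM against 547 to 1297 and 1248 to 1654. The part of tissue make-up in the values of the 10 genes was not tested.

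Without both first replicates, 4 of the 10 genes had an unadjusted p under 0.05 in edgeR, all lower in KO: *Ltbp1* (-0.73), *Itgav* (-0.54), *Tgfbr2* (-0.34 ± 0.12) and *Tgfb2* (-0.29 ± 0.10). The share of all genes at that level was 30% in this fit of 2 libraries a group. At an adjusted p under 0.05 it had 0 of the 10 genes and 0.275% of all genes. The other 6 values in this fit were -0.27 for *Tgfb1*, 0.18 for *Tgfb3*, 0.60 for *Itgb6*, -0.21 for *Itgb8*, 0.10 for *Tgfbr1* and 0.18 for *Smad7*. Those of *Itgb6*, *Itgb8*, *Tgfbr1*, *Smad7* and *Tgfb2* differ from the values over 6 libraries by more than 1.5 times. The median over the 10 genes was then -0.24.

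The genes whose pattern over the 6 libraries came nearest were sought among 11649 other genes of at least 5 CPM, by the root mean square difference in centred log2 CPM. *Sbf2* (0.029) and *Chst15* (0.036) were nearest to *Tgfbr2*, *Plcl2* (0.039) and *Cmtm3* (0.053) to *Tgfbr1*, and *C1qtnf5* (0.043) and *St6galnac4* (0.044) to *Tgfb1*. *Dhx36* (0.047) and *Ipo11* (0.056) were nearest to *Tgfb2*, *Arhgap30* (0.058) and *Lsp1* (0.059) to *Tgfb3*, *Qpctl* (0.060) and *Iars2* (0.064) to *Itgav*, and *Tbc1d1* (0.065) and *B3glct* (0.070) to *Ltbp1*. *Ism1* (0.067) and *Gata2* (0.104) were nearest to *Smad7* and *Plekhg3* (0.075) and *Jade1* (0.120) to *Itgb8*. No gene came so close to *Itgb6*, for which *Map2* (0.135) and *Mpv17l* (0.174) were nearest. Among the 10 genes themselves, *Tgfb3* and *Tgfbr1* (0.116) and *Tgfb1* and *Tgfbr2* (0.158) had the most similar patterns. With 6 libraries and so many candidates, these near matches are descriptions.

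Other pathway genes were read from lists, with CPM for single genes. Limma-voom with sample weights, which called 13.4% of all genes, called 4 of 14 in the latency list, 0 of 16 among receptors and Smads, 1 of 11 negative regulators, 4 of 20 targets and 8 of 18 in the wider family. All were lower in KO except 3 of the wider family. Of 14 further latency and activation genes 10 had lower and 4 higher estimates in KO, with a median log2 fold change of -0.42. Of them 0 passed edgeR over all genes and 2 had an unadjusted p under 0.05, beside 11.8% of all genes. DESeq2 called 1 of the 14, beside 3.63% of all genes. The groups did not overlap for 2 of the 14, both lower in KO, beside 21.1% of all genes. *Itgb3*, the beta 3 chain, had 82.8, 78.1 and 53.6 CPM in WT and 36.0, 37.2 and 39.6 CPM in KO, without overlap (-0.93 ± 0.21, edgeR adjusted p 0.234, DESeq2 adjusted p 0.0222). *Itgb3* is also a platelet gene, and the other platelet markers did not move one way. *Pf4* was lower in KO (-1.76 ± 0.47) and *Ppbp* higher (1.01 ± 0.42), both without overlap, while *Itga2b* (-0.46 ± 0.31) and *Gp9* (0.26 ± 0.50) overlapped and *Gp1bb* was too low to be tested. The part of platelets in the *Itgb3* values was not tested. *Furin* had 271, 379 and 372 CPM in WT and 102, 228 and 214 CPM in KO, also without overlap (-0.91 ± 0.35, edgeR adjusted p 0.392, DESeq2 adjusted p 0.204). The matrix protein gene *Thbs1*, an activator of latent TGF-beta (-0.46 ± 0.91), and *Itgb1* (-0.33 ± 0.33) had the highest CPM of the list. Without KO replicate 3 the *Thbs1* value was -1.001 and without KO replicate 1 it was 0.06. *Nrros*, which holds latent TGF-beta on myeloid cells (0.48 ± 0.35, or 0.28 without both first replicates), and *Ltbp4* (0.21 ± 0.60) had the smallest p among the higher estimates.

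Of 16 other receptor and Smad genes 6 had higher and 10 lower estimates, with a median of -0.09. In this list 0 had an unadjusted p under 0.05 in edgeR or were called by DESeq2, beside 11.8% and 3.63% of all genes. Those of highest CPM in the list, *Bmpr2* (0.30 ± 0.31, or 0.17 without both first replicates) and the endothelial receptor gene *Acvrl1* (0.65 ± 0.47), overlapped between the groups. *Acvr2b* (0.43 ± 0.29), *Smad9* (0.41 ± 0.28), *Smad1* (-0.48 ± 0.33) and the common mediator gene *Smad4* (-0.24 ± 0.19) had the smallest p in each direction. The first 2 of these did not overlap between groups. Among the 16 the groups did not overlap for 2 higher and 1 lower in KO, beside 9.81% and 11.3% of all genes. Of 11 negative regulators 4 were higher and 7 lower, with a median of -0.35. Beside 11.8% of all genes, 1 of the 11 had an unadjusted p under 0.05 in edgeR. This was *Pmepa1*, a target that sequesters Smads, at 174, 201 and 238 CPM in WT and 66.3, 165 and 99.8 CPM in KO (-0.89 ± 0.35, edgeR adjusted p 0.407). *Ppm1a*, a Smad phosphatase gene (-0.36 ± 0.15), did not overlap between groups either, nor did the decoy receptor gene *Bambi* (0.37 ± 0.20). *Smurf2* (0.44 ± 0.28), *Bgn* (-0.51 ± 0.51) and *Ski* (-0.35 ± 0.37) overlapped. Among the 11 the groups did not overlap for 1 higher and 2 lower in KO, beside 9.81% and 11.3% of all genes.

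Of 20 genes known as TGF-beta targets 17 had lower estimates in KO and 3 higher, with a median of -0.70, beside 51% lower and a median of -0.01 over all genes tested. edgeR called 0 of them over all genes. At an unadjusted p under 0.05 it had 4, all lower, beside 11.8% of all genes, or 5.89% lower. The groups did not overlap for 4 of the 20, all lower, beside 21.1% of all genes, in a list chosen with results known. DESeq2 called 1, *Lox*, beside 3.63% of all genes. This collagen crosslinking gene had 857.3, 1143 and 901.5 CPM in WT and 175, 532 and 369 CPM in KO (-1.43 ± 0.42, edgeR adjusted p 0.294, DESeq2 adjusted p 0.0286). *Tagln*, a smooth muscle cytoskeleton gene, had 438, 459 and 476 CPM in WT and 150.2, 320 and 187 CPM in KO (-1.06 ± 0.31, edgeR adjusted p 0.292). The targets of highest CPM, *Fn1* (-1.13 ± 0.95) and *Col3a1* (-0.66 ± 0.66), had an SE near the size of the difference. *Junb* (0.29 ± 0.95) and *Itga11* (0.34 ± 0.65) had the smallest p among the higher estimates. Without both first replicates 16 of 20 were lower, with a median of -0.59, and *Tnc* (-1.90 ± 0.15, named after its value was seen) passed edgeR over all genes, with an adjusted p of 0.0432. The target list's mean level was lowest in replicate 1 of each genotype and overlapped between the genotypes, and 5 of its members (*Cthrc1*, *Postn*, *Col1a1*, *Col3a1* and *Tnc*) are also scar fibroblast markers. Of 6 smooth muscle markers 4 had lower and 2 higher estimates, with a median of -0.85. The 3 lowest in p (*Acta2*, *Actg2* and *Des*) were lower with an unadjusted p under 0.05 and no overlap, and *Acta2* is itself in the target list. *Cnn1* (-0.51 ± 0.51), *Myh11* (0.01 ± 0.72) and *Lmod1* (0.40 ± 0.41) overlapped between the groups. Over all genes tested, 5.89% were lower with an unadjusted p under 0.05 and 11.3% were lower without overlap. The 6 smooth muscle markers summed to 879 to 1359 CPM in WT and 263 to 865 CPM in KO. The part of these cell types in the target values was not tested.

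Ligands and antagonists of the wider family held the largest single differences. Of 18 genes 12 were lower and 6 higher, with a median of -0.68. edgeR called 0 over all genes, 4 lower and 3 higher had an unadjusted p under 0.05, and DESeq2 called 2 lower and 3 higher. These are 7 and 5 of the 18, beside 11.8% and 3.63% of all genes, in a list chosen with results known. The activin A subunit gene *Inhba* had 71.1, 88.8 and 96.9 CPM in WT and 7.20, 38.4 and 15.3 CPM in KO (-2.07 ± 0.58, edgeR adjusted p 0.276, DESeq2 adjusted p 0.0124). The activin antagonists *Fst* (-1.76 ± 0.77) and *Fstl3* (-0.88 ± 0.25, or -0.55 without both first replicates) did not overlap between groups, whereas the abundant *Fstl1* (-0.93 ± 0.56) did. *Bmp3* (1.13 ± 0.20, DESeq2 adjusted p 3.69e-04) had 14.3, 10.6 and 15.0 CPM in WT and 28.0, 29.6 and 29.7 CPM in KO. DESeq2 also called, named after their values were seen, *Grem1* (-3.04 ± 0.95) and *Gdf15* (1.37 ± 0.39). The smallest edgeR adjusted p in this list was 0.203, for *Bmp3*.

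**Figure D5:**
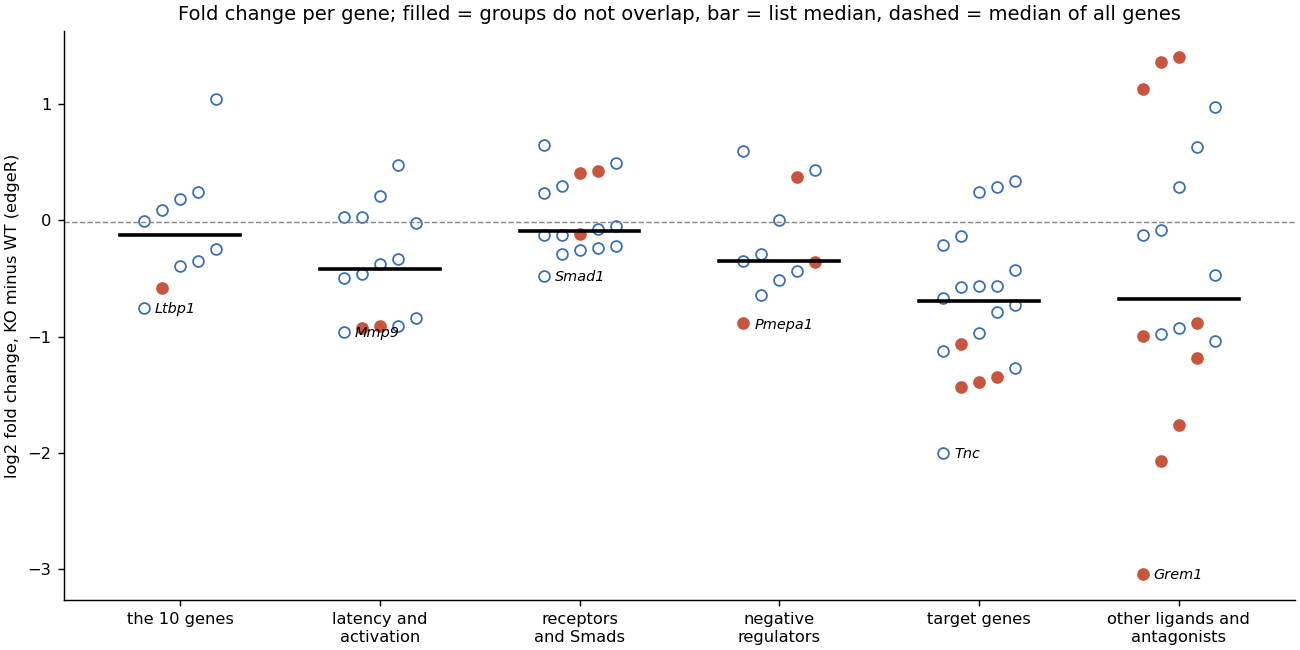
Log2 fold change (KO minus WT, y axis) of every gene of the 10 and of the 5 other pathway lists (x axis), filled where the groups do not overlap, with the lowest gene of each list named, each list's median as a bar and the median of all genes dashed. The medians run from -0.09 for receptors and Smads to -0.70 for the target genes, and the 10 genes lie at -0.12.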

How the data were processed

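Whole-lung RNA from 6 mice was extracted with TRIzol and made into NEBNext Ultra libraries, per the labels' protocols. The authors deposited read counts per gene as whole numbers without normalization, and FPKM values (scaled to gene length and mapped fragments) for the same genes. The submitters' processing notes list HISAT2 2.0.4, StringTie 1.3.4d and the build GRCm38 but give no roles. How reads were counted, by strand or with several matches, is not given in the sources used. KO columns in the FPKM table have names whose replicate the labels do not explain, so they were used by group.

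edgeR 4.0.16 (R 4.3.3) was run with filterByExpr (16633 rows kept), TMM scaling and robust quasi-likelihood testing of genotype alone, 2-sided, with Benjamini-Hochberg adjustment over all genes and a threshold of 0.05. CPM uses the TMM factors. Each SE is the size of the log2 fold change divided by the root of its F statistic. Alternatives were DESeq2 1.42.0, limma 3.58.1 (voom with and without sample weights, and log2(FPKM + 1) or log2(FPKM + 0.1), kept where 3 libraries reach 0.5 FPKM, or unfiltered), other scalings and filters, a replicate block, each library left out, and both first replicates left out. Fold changes on the log2(FPKM + pseudocount) scale understate low genes. Each library is 1 mouse, per the series design text.

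The 10 genes and the lists were chosen with earlier results of these data known. Named were all 10, and of each pathway list the 2 genes of smallest p per direction and the 2 of highest mean CPM, plus the 2 nearest patterns per gene. *Ccn2* was found as its synonym and 1 of the 192 list entries was not in the table. The fit was first tested on simulated data with known changes, at an adjusted p under 0.05. There edgeR recovered 0% of 2-fold and 50% of 4-fold changes, with 7 false calls. DESeq2 recovered 18% and 84% of them, with 78 false calls. One gene that the rule names is not reported here.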

Additional observations from a re-analysis of the deposited data

How the results depend on the processing

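edgeR called 0 of 16633 genes over the 6 libraries. DESeq2 called 678 of 18663, limma-voom with sample weights 2221, limma on log2(FPKM + 0.1) 3, and edgeR without both first replicates 46. With 1 library left out edgeR called 0 to 3, with 1 without KO replicate 1 and 3 without KO replicate 2. Among the 10 genes limma-voom with sample weights called 1, *Itgav*, and every other setting called 0. *Tgfb2* turned positive with DESeq2 (0.0065), DESeq2 size factors (0.0066), library totals (0.042), the 1 CPM filter (5.505e-05) and limma on log2(FPKM + 1) with or without the filter (0.079) or on log2(FPKM + 0.1) (0.088). *Junb* turned negative with limma-voom (-0.031) and with the replicate block (-0.022). The cause was not tested. With 1 library left out the ranges that crossed 0 were -0.18 to 0.10 for *Tgfb2*, -0.042 to 0.38 for *Tgfbr1*, -0.28 to 0.47 for *Smad7*, -0.15 to 0.60 for *Ltbp4*, -1.001 to 0.061 for *Thbs1*, -0.42 to 0.71 for *Itga11* and -0.17 to 0.81 for *Junb*.

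Replicate numbers are shared by the genotypes, and same-numbered deviations correlated at 0.351, 0.35 and -0.099. The same number matched best for WT replicates 1 and 2, but WT replicate 3 correlated best with KO replicate 2. Deviations from a mean of 3 are not independent, so these values cannot decide on pairing, and the main fit used no pairs. The replicate block in edgeR left 0 genes called, with 3387 at an unadjusted p under 0.05 against 1968. It put *Itgav* at -0.59 (adjusted p 0.151) and *Ltbp1* at -0.77 (adjusted p 0.131). The SE of *Ltbp1* was then 0.107 against 0.466 in the main fit, while that of *Tgfb2* was 0.22 against 0.215. The scarcest of the 10 genes had at least 175 counts in each library, and the part of depth in the results was not tested.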
